A study of Mus musculus with 55 samples.

Results

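Fully grown oocytes (FGOs) of the double mutant [Dnmt3a ADD/ADD, Dnmt3L ADD/ADD] were compared with wild-type FGOs by RNA sequencing of single oocytes. The comparison took all 8 double mutant and all 18 wild-type FGO libraries, 26 of the 55 samples of the series, as their labels name genotype and cell type. Double mutant females carried Dnmt3aADA/ADA together with Dnmt3L D124A/D124A, wild-type females neither allele, and every FGO came from an adult of 10 to 12 weeks by needle puncture of the ovary, with cumulus cells washed off through a capillary. Beside them stood 8 FGOs with the Dnmt3a alleles alone (DNMT3A-ADD), 8 with the Dnmt3L alleles alone (DNMT3L-ADD) and 10 wild-type oocytes at metaphase of the second meiotic division (MII oocytes). Mutations are present in every cell of the animal and not only in oocytes, and the mutant alleles were crossed repeatedly to C57BL/6J. Which female gave which oocyte is not stated, so p-values measure the spread between single-oocyte libraries.

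DNMT3A is the enzyme that sets new DNA methylation in the growing oocyte, and DNMT3L is its catalytically inactive partner. The ADD domain of both proteins binds the tail of histone H3 where lysine 4 carries no methyl group, which keeps new methylation away from regions where that lysine is methylated, such as active promoters. The FGO has stopped most transcription and holds the store of maternal RNA that it will use until the embryo's genome is switched on. Imprinted genes, expressed from only 1 parental allele after fertilisation, owe that state largely to methylation laid down at this stage.

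The sequences that made the alleles are shown because they define what differs between the groups. In the Dnmt3a lines the capitals mark the bases that the donor oligo replaces, and in the Dnmt3l lines the replaced base inside the guide. Positions in the guide are counted from 1 at its 5′ end.
Dnmt3a guide: gcttaccagtatgAcgacgAtgg
Dnmt3a donor at the guide: gcttaccagtatgCcgacgCtgg
Dnmt3l guide: ctcttcctgtatgatgatgA
Dnmt3l donor at the guide: ctcttcctgtatgatgatgC
The Dnmt3a guide lies on the plus strand at chr12:3899605-3899627 of GRCm38 (mm10), in exon 14 of transcript Dnmt3a-201, and its donor carries A14C and A20C. Only 4 of the 13 coding Dnmt3a transcripts in GENCODE hold this stretch unbroken. The Dnmt3l guide lies at chr10:78052010-78052029, plus strand, in exon 7 of Dnmt3l-205 and in 3 of 6 coding transcripts. The Dnmt3l donor carries A20C and 1 further change outside the guide shown. A further Dnmt3l guide is listed with it and not shown. Read as its reverse complement, that guide spans both changed bases. All are changes of single bases within coding exons.

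Counts per gene cannot check such alleles, and both transcripts were present in every FGO. In CPM, counts scaled to a common library total, Dnmt3a ranged from 295 to 359 with a median of 304 in the 8 double mutants and from 243 to 352 with a median of 304 in the 18 wild types. Dnmt3l was at 87.3 to 137 CPM (median 123) in double mutants and 86.9 to 151 CPM (median 128) in wild types. The ranges overlapped almost wholly. Neither log2 fold change passed the test, at 0.04 ± 0.05 (SE, adjusted p = 0.68) for Dnmt3a and -0.06 ± 0.10 (adjusted p = 0.69) for Dnmt3l. Against wild-type replicates 1 to 8 alone the Dnmt3l value was 0.22 ± 0.08 (adjusted p = 0.19). Against replicates 9 to 18 it was -0.26 and passed (edgeR adjusted p = 0.01). These wild-type sets did not overlap for Dnmt3l, at 86.9 to 120 CPM in replicates 1 to 8 and 126 to 151 CPM in replicates 9 to 18.

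Each library held 12090966 to 16328967 counts in the double mutants and 11510790 to 17216121 in the wild types. Of 51734 listed genes, 15726 had enough counts to be tested, 12701 of them present in MII oocytes (mean of at least 1 CPM over the 10 MII libraries) and 3025 absent there. The wild-type FGOs are not uniform: replicates 1 to 8, whose share of mapped reads is like that of the double mutants, differed from replicates 9 to 18 in 701 genes, 4.46% of those tested. The double mutants were therefore compared with all 18 wild types and again with replicates 1 to 8. These comparisons share the 8 double mutants and those 8 wild types. A gene was called where the fold change was over 2 and the Benjamini-Hochberg adjusted p from edgeR's quasi-likelihood test was under 0.05, and all adjusted p-values below are from that test.

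Against all 18 wild types and against replicates 1 to 8, far more transcripts were lower than higher in double mutant FGOs, and most of those lower in both are scarce and belong to transcripts that MII oocytes lack. Against the 18 wild types 28 genes were higher (0.178% of genes tested) and 232 lower (1.48%), 1.65% in all, and against replicates 1 to 8 the counts were 10 (0.0636%) and 139 (0.884%). In both comparisons 7 genes were higher (0.0445% of genes tested) and 106 lower (0.674%). Testing required enough counts in at least 8 libraries, the size of the smallest genotype group, whichever group held them. A scarce transcript could therefore enter through part of the 18 wild types, whereas one found in double mutants alone needed all 8. Of the 106, 25 had a double mutant median of 0. The excess of lower genes among scarce transcripts cannot be read apart from this filter. The median log2 fold change over all tested genes was -0.01 against either wild-type set. Among the 106 it was -2.12. Wild-type replicate 7 carried part of this number, since without it 66 genes were lower and 6 higher in both comparisons. The balance was the other way round against wild-type replicates 9 to 18, where 493 genes were higher (3.13%) and 344 lower (2.19%), 5.32% in all. Of the genes called in both comparisons, 6 of the 7 higher and 71 of the 106 lower genes were also called against replicates 9 to 18 (0.0382% and 0.451% of genes tested). Single mutants were set beside the double mutant in the same fit, where more genes were higher than lower in the double mutant too. It was higher in 689 genes (4.38%) and lower in 232 (1.48%) against DNMT3A-ADD, 5.86% in all, and higher in 450 (2.86%) and lower in 183 (1.16%) against DNMT3L-ADD, 4.03% in all.

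Presence in MII oocytes split these genes unevenly. Against the 18 wild types 62 present genes were lower (0.488%) and 11 higher (0.0866%), and 170 absent genes lower (5.62%) and 17 higher (0.562%). Against replicates 1 to 8 the counts were 42 (0.331%) and 5 (0.0394%) for present and 97 (3.21%) and 5 (0.165%) for absent genes. Of the 106 lower genes, 79 were absent in MII oocytes, which is 2.61% of the absent genes tested. The other 27 were present there, 0.213% of the present genes tested. Of the 7 higher genes 5 were present (0.0394%) and 2 absent (0.0661%). Absent genes were called more often between the wild-type sets too. Replicates 1 to 8 were higher than 9 to 18 in 372 absent (12.3%) and 206 present genes (1.62%). They were lower in 51 (1.69%) and 72 (0.567%). Against replicates 9 to 18 the double mutant was higher in 266 absent genes (8.79%) and lower in 201 (6.64%). For present genes the counts were 227 (1.79%) and 143 (1.13%). Of the 27 present lower genes, 17 had a median under 1 CPM over the MII libraries, so that a few MII libraries carried their mean, whereas 175 of the 12701 present genes had so low a median. Abundant oocyte transcripts were seldom called: of the 8423 present genes with a wild-type FGO mean of at least 10 CPM, 12 were called in both comparisons. The highest wild-type FGO mean of any gene called in both was 23.6 CPM.

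**Figure D1:**
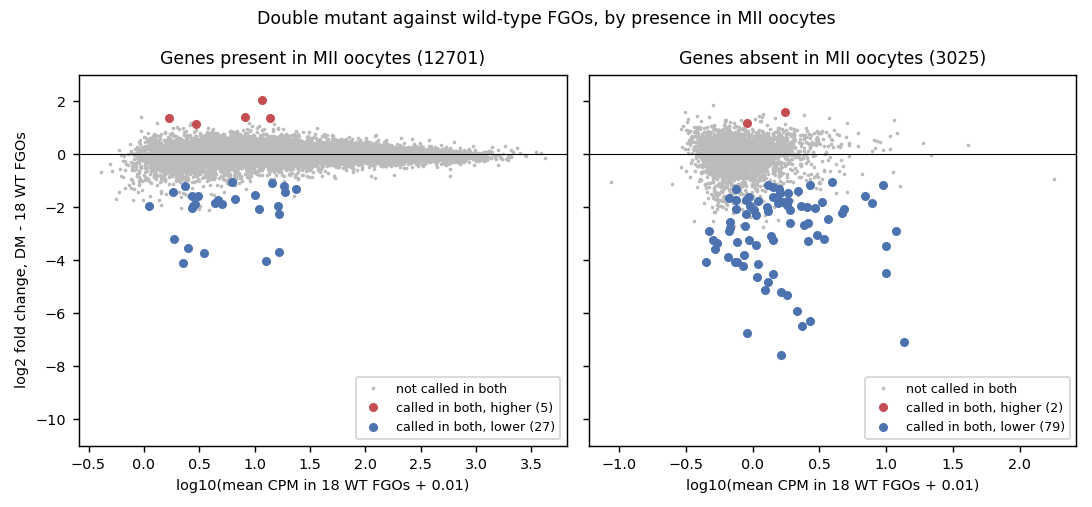
Log2 fold change of double mutant (DM) over 18 wild-type (WT) FGOs from the edgeR fit against the log10 of the wild-type mean CPM plus 0.01, one point per tested gene, with genes present in MII oocytes on the left and absent on the right. Coloured points are the 7 higher and 106 lower genes called against both wild-type sets, and the lower ones lie mainly on the right and at low means.

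Regulatory sequence is shown for 5 of the called genes. DNMT3A methylates CG and non-CG sites across the genome, so promoter CG dinucleotides are only part of its substrate. Each line gives 300 bases of the RefSeq reference (GRCm38.p6), from 250 before to 50 after a transcript start, read 5′ to 3′ on the gene's strand, with every CG in capitals. Gcc1 and Spin4 were higher in the double mutant, and Nap1l5, Inha and Hsd3b1 were lower.
Gcc1: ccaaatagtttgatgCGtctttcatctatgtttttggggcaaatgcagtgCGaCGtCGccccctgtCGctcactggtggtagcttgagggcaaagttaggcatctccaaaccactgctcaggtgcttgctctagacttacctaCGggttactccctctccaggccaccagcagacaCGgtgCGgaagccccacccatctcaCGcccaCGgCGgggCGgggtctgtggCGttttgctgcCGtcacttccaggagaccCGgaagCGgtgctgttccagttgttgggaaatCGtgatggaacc
Spin4: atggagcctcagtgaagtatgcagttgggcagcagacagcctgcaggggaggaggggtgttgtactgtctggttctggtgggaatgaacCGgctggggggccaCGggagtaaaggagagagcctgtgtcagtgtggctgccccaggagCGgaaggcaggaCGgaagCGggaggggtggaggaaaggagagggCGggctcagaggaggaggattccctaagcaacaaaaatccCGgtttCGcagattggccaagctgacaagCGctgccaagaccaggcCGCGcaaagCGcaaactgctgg
Nap1l5: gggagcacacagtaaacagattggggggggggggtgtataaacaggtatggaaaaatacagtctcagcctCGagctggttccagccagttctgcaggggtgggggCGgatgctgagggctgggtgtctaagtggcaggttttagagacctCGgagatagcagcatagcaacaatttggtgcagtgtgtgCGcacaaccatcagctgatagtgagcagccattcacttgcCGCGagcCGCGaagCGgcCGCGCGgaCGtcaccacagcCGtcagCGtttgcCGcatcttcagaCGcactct
Inha: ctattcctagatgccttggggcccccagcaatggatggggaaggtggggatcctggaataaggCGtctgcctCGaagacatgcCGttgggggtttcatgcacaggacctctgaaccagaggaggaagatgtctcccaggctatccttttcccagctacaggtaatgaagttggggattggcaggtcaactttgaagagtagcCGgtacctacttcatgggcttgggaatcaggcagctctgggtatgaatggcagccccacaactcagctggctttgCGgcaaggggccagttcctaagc
Hsd3b1: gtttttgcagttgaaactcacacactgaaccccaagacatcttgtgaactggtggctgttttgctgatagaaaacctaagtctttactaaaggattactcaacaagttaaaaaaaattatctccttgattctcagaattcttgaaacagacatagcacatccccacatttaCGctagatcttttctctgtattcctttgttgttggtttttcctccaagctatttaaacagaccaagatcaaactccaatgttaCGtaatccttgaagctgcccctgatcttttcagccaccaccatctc
The windows are chr6:28421675-28421974 on the minus strand for Gcc1 with 17 CG, chrX:95026633-95026932 on the minus strand for Spin4 with 12, chr6:58907077-58907376 on the minus strand for Nap1l5 with 17, chr1:75507359-75507658 on the plus strand for Inha with 5 and chr3:98859745-98860044 on the minus strand for Hsd3b1 with 2. The Gcc1 and Inha starts lie inside the gene bodies that the count files list. Over 13799 such windows of tested genes the median was 19 CG, with 20 for genes present and 12 for genes absent in MII oocytes. The 82 windows of 69 lower genes had a median of 13 and the 3 windows of higher genes 17. AGGTCA, searched on both strands, is a core motif read by nuclear receptors such as the steroidogenic regulator NR5A1, and it was in 13.4% of the windows of lower genes and in 12.99% of all windows. The longer CAAGGTCA, which contains AGGTCA, was in none of the 82 and in 1.11% of all. TATAAA was in 13.4% of lower-gene windows and 7.89% of all, and within genes absent in MII oocytes it was in 11.94% of lower-gene windows and 10.97% of all. No methylation was measured in these libraries.

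Among the higher genes, Peg10 gave the largest fold change against the 18 wild types, while Glipr2, described below, was larger against replicates 1 to 8. Peg10 is an imprinted gene derived from a retrotransposon and needed for the placenta. It lies at chr6:4747306-4760517. Peg10 was at 12.7 to 76.6 CPM with a median of 49.6 in double mutants, and at 3.96 to 37.0 CPM with a median of 8.27 in wild types. The groups overlapped at their edges, the highest wild types being among replicates 1 to 8, while replicates 9 to 18 ended at 12.8 CPM. The log2 fold change was 2.02 ± 0.31 (adjusted p = 3.3e-05) against all 18 and 1.48 ± 0.34 (adjusted p = 0.0091) against replicates 1 to 8. Peg10 was also higher than in the single mutants, whose means were 13.4 CPM in DNMT3A-ADD and 14 CPM in DNMT3L-ADD FGOs (log2 difference 1.74, adjusted p = 0.00098, and 1.69, adjusted p = 0.0024). Its divergent neighbour Sgce, which encodes a sarcoglycan and starts 99 bases away, shares its imprint. Sgce was at 1.47 to 4.15 CPM (median 3.18) in double mutants and 0.192 to 2.54 CPM (median 1.01) in wild types. Sgce passed against the 18 (log2 1.26 ± 0.26, adjusted p = 0.0017) and not against replicates 1 to 8 (0.78 ± 0.28, adjusted p = 0.15). Unlike Peg10, Sgce did not differ from DNMT3A-ADD FGOs by the test (mean 2.20 CPM, log2 difference 0.28, adjusted p = 0.52). It was higher there than in the 18 wild types (log2 0.98, adjusted p = 0.009). Over DNMT3L-ADD FGOs (mean 1.47 CPM) the double mutant was higher by log2 0.87 (adjusted p = 0.041).

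Gcc1, which encodes a coiled-coil protein of the Golgi, was high in all 3 ADD mutants. It was at 28.2 to 44.6 CPM with a median of 34.0 in double mutants, against 5.90 to 36.1 CPM with a median of 11.1 in wild types. Only the upper end of replicates 1 to 8 reached the double mutant range, since replicates 9 to 18 ended at 15.6 CPM. The log2 fold change was 1.38 ± 0.18 (adjusted p = 4.9e-06) against the 18 and 1.10 ± 0.21 (adjusted p = 0.0014) against replicates 1 to 8. Single mutant means were 32.8 CPM in DNMT3A-ADD and 29.3 CPM in DNMT3L-ADD FGOs, and the double mutant did not pass a test against either (log2 differences 0.07, adjusted p = 0.84, and 0.24, adjusted p = 0.45). Glipr2 and Atp8b1 likewise did not differ from either single mutant by the test. Glipr2, a Golgi-associated protein gene absent in MII oocytes, was at 0.641 to 2.84 CPM (median 2.35) in double mutants and 0.375 to 1.99 CPM (median 0.755) in wild types (log2 1.17 ± 0.26, adjusted p = 0.0038, and 1.58 ± 0.32, adjusted p = 0.0026, against replicates 1 to 8). Atp8b1, which encodes a lipid flippase, was at 4.31 to 11.4 CPM (median 5.36) against 1.28 to 5.33 CPM (median 2.80), with overlap at the edge of the ranges (log2 1.12 ± 0.23, adjusted p = 0.0016). Without double mutant replicate 3, Atp8b1 was no longer past the 2-fold limit (log2 0.95).

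The other higher genes passed against the single mutants too. Spin4, an X-linked relative of the histone methyl-lysine reader Spindlin, was at 3.14 to 6.83 CPM (median 3.84) in double mutants. In wild types it was at 0.906 to 4.50 CPM (median 1.53), and the upper end came from 1 library of replicates 1 to 8. Its log2 fold change was 1.36 ± 0.23 (adjusted p = 0.00012), and 1.12 (adjusted p = 0.0028) and 0.76 (adjusted p = 0.04) over DNMT3A-ADD and DNMT3L-ADD. Adgra2, an adhesion receptor gene absent in MII oocytes, ranged from 1.07 to 13.9 CPM (median 3.47) in double mutants and from 0.659 to 4.50 CPM (median 1.58) in wild types (log2 1.60 ± 0.32, adjusted p = 0.0012). The predicted gene Gm12735 was at 9.50 to 36 CPM (median 23.3) against 4.33 to 14.3 CPM (median 6.47), with a log2 fold change of 1.39 ± 0.22 (adjusted p = 4.5e-05). Its neighbour Fau-ps2, a pseudogene 2191 bases away whose reads may be shared with its parent gene, was called against the 18 (log2 1.24) and replicates 9 to 18 (2.17) and not against replicates 1 to 8 (0.57, adjusted p = 0.55).

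**Figure D2:**
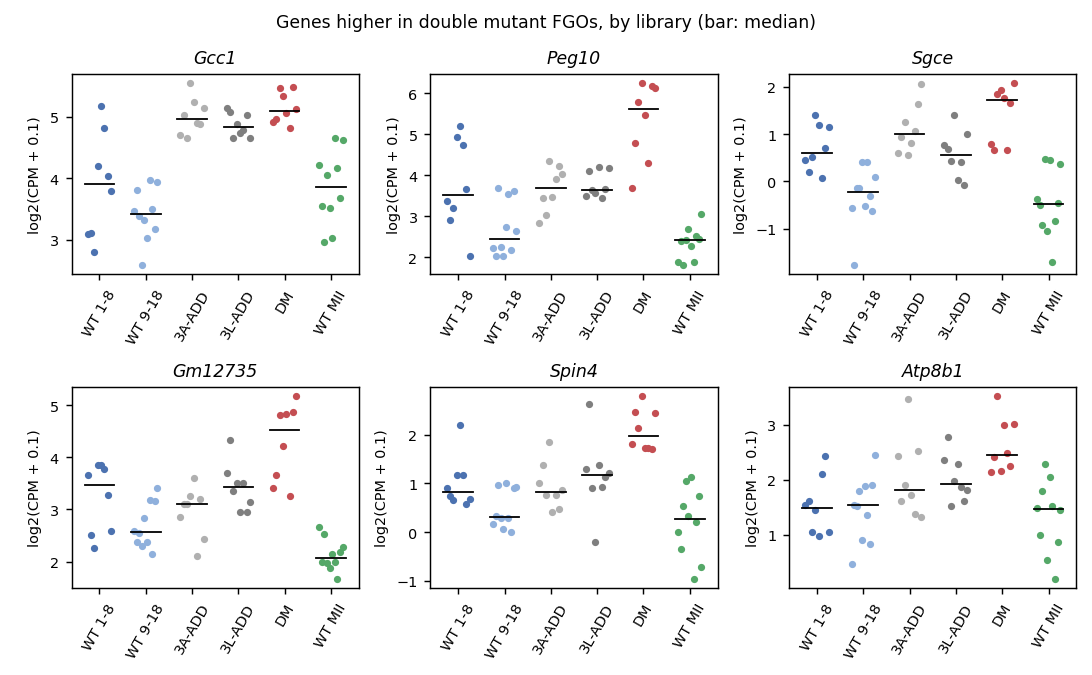
Expression as log2(CPM + 0.1) of 6 genes higher in double mutant FGOs, one point per library and a bar at each group's median, for wild-type replicates 1 to 8 and 9 to 18 (WT), DNMT3A-ADD (3A-ADD), DNMT3L-ADD (3L-ADD) and double mutant (DM) FGOs and wild-type MII oocytes. Gcc1 is high in all 3 mutants, whereas Peg10 and Gm12735 are highest in the double mutant.

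Against the 18 wild types alone, further genes were higher that lost the call against replicates 1 to 8. Has2, the hyaluronan synthase of cumulus expansion, was at 0.469 to 4.41 CPM (median 2.70) in double mutants and 0.174 to 2.62 CPM (median 0.610) in wild types. Its fold change was the same in both comparisons (log2 1.39 ± 0.36, adjusted p = 0.01, and 1.39 ± 0.45, adjusted p = 0.10). Ostm1, a lysosomal chloride transport gene, was at 10.0 to 34.9 CPM (median 20.5) against 1.37 to 27.6 CPM (median 5.93), but at log2 0.70 ± 0.35 (adjusted p = 0.39) against replicates 1 to 8. Nes, an intermediate filament gene, and Zfp768, a zinc finger gene, gave log2 1.07 ± 0.29 and 1.10 ± 0.32 against the 18 and 0.88 ± 0.35 and 0.73 ± 0.38 against replicates 1 to 8. Erdr1, whose copies on the sex chromosomes share reads, and Tmem37, a membrane protein gene, gave log2 1.17 ± 0.31 and 1.58 ± 0.41, and 0.72 ± 0.35 and 1.01 ± 0.46 against replicates 1 to 8.

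The lower genes included transcripts of the follicle's somatic cells. The marker lists were chosen with earlier results of these data known, so their counts are not independent support. Of the 106, 18 are on the lists of granulosa, theca and stroma markers, 12 of them absent and 6 present in MII oocytes. The granulosa and cumulus list had 7 of 21 tested members lower in both comparisons, the theca and steroid synthesis list 6 of 14 and the stroma and smooth muscle list 5 of 14, beside 0.674% of all genes. None of the 5 tested endothelial and blood genes and none of the 17 tested oocyte markers was called. The median log2 fold changes against the 18 were -0.42, -0.90 and -1.46 for the first 3 lists, -0.28 for endothelium and blood and 0.14 for oocyte markers, beside -0.01 over all tested genes.

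The summed level of the somatic markers scarce in MII oocytes was lower in double mutant than in wild-type FGOs. Over the 43 somatic markers under 1 CPM in MII oocytes, the sum was 8.76 to 15.3 CPM (median 13) in the 8 double mutants, 35.8 to 107 CPM (median 52) in wild-type replicates 1 to 8 and 33.6 to 167.5 CPM (median 62.1) in replicates 9 to 18. Double mutant and wild-type FGOs did not overlap. Inhbb, Inha and Aldh1a1, each called lower by itself, made up much of the wild-type sum, at wild-type means of 11.8, 9.96 and 9.91 CPM. Other members were alike in double mutants and wild types, such as Krt8 at means of 1.52 and 1.56 CPM and Gatm at 0.562 and 0.523 CPM. The medians of the single mutants lay between, at 29.5 CPM in DNMT3A-ADD (12.7 to 134.6 CPM) and 31.6 CPM in DNMT3L-ADD (18 to 51.1 CPM). DNMT3A-ADD libraries overlapped both the double mutants and the wild types, and DNMT3L-ADD libraries overlapped the wild types. MII oocytes were at 2.07 to 15.9 CPM, low by the choice of these markers. All 76 markers summed to 945 to 1059 CPM in double mutants, 1074 to 1596 CPM in wild types and 1095 to 1254 CPM in MII oocytes, so that double mutants lay below both. Myh11 alone, at means of 249 CPM in double mutants and 334 CPM in wild types, is part of that gap. It did not pass against replicates 1 to 8 (log2 -0.11, adjusted p = 0.68). Over all 76 the single mutants lay within the wild-type range, at 1113 to 1518 CPM in DNMT3A-ADD and 1136 to 1269 CPM in DNMT3L-ADD. Of the 76, 9 were at 0 in every double mutant library (Acta2, Lum, Tcf21, Insl3, Ptx3 and 4 globin genes), of which Insl3, Ptx3 and 1 globin gene were at 0 in every wild-type library too. FGOs lie inside a shell of granulosa cells joined to them by processes, and RNA from such cells and RNA made by the oocyte cannot be told apart in these libraries. The part of somatic RNA in the lower genes was not tested.

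**Figure D3:**
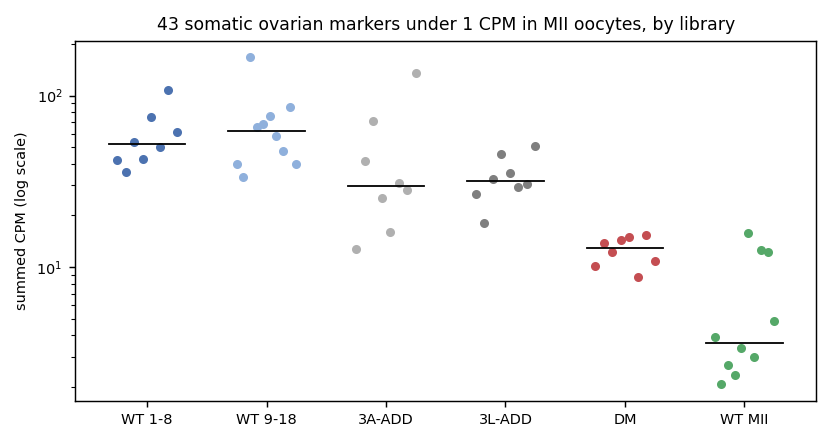
Summed CPM, on a log axis, of the 43 somatic ovarian markers under 1 CPM in MII oocytes, one point per library and a bar at each group's median. The 8 double mutant (DM) libraries lie at 8.76 to 15.3, below all 18 wild-type (WT) FGOs. The medians of DNMT3A-ADD (3A-ADD) and DNMT3L-ADD (3L-ADD) FGOs lie between, and their libraries overlap the wild types.

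Of the granulosa genes, those of the inhibin and activin family were low together. Inha encodes the alpha subunit of inhibin and lies at chr1:75507077-75510366, and its promoter is printed above. It was at 0.294 to 1.56 CPM (median 0.990) in double mutants and 2.77 to 26.4 CPM (median 7.54) in wild types, without overlap. Among all tested genes 19 (0.121%) lay wholly below the 18 wild types in this way. The log2 fold change was -3.46 ± 0.37 (adjusted p = 1.1e-07) against the 18 and -3.30 ± 0.40 (adjusted p = 2.8e-06) against replicates 1 to 8. Inha was also lower than in DNMT3A-ADD (mean 2.61 CPM, log2 difference -1.57, adjusted p = 0.0029) and DNMT3L-ADD FGOs (3.37 CPM, -1.91, adjusted p = 0.00095). Inhbb and Inhba, the beta subunits, were at medians of 1.75 and 2.28 CPM in double mutants and 9.52 and 8.34 CPM in wild types, with overlapping ranges (log2 -2.91 ± 0.50, adjusted p = 0.0002, and -2.07 ± 0.42, adjusted p = 0.0014). Neither passed against DNMT3A-ADD FGOs, and Inhba did not pass against DNMT3L-ADD FGOs either (log2 -0.68, adjusted p = 0.28). Inhba was lower than in wild types in both single mutants too (log2 -1.41, adjusted p = 0.012 in DNMT3A-ADD, and -1.39, adjusted p = 0.029 in DNMT3L-ADD). Fst, encoding the activin-binding follistatin, was at 0 to 1.14 CPM (median 0.359) against 1.11 to 5.91 CPM (median 2.28), touching only at the edge (log2 -2.60 ± 0.41, adjusted p = 6.0e-05).

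Some genes of granulosa cell identity and contact were lower as well. Against the 18, 8 of the 21 tested list members were called lower and 1, Has2, higher. Others did not pass, among them Wt1 (log2 -0.33), Nr5a2 (0.11), Esr2 (0.19), Kitl (0.15) and Cyp19a1 (-0.18), at adjusted p from 0.12 to 0.76. Gja1, the connexin 43 of granulosa gap junctions, was at 0.570 to 5.97 CPM (median 3.32) in double mutants and 7.31 to 39.8 CPM (median 12.9) in wild types, without overlap (log2 -2.25 ± 0.39, adjusted p = 0.00017). Hsd17b1, the enzyme that makes estradiol from estrone, was at 0 to 0.883 CPM (median 0.370) against 1.15 to 6.91 CPM (median 2.77), again without overlap (log2 -3.19 ± 0.45, adjusted p = 1.2e-05). Foxl2, the transcription factor that maintains granulosa identity, overlapped between groups, at 0 to 1.32 CPM (median 0.216) and 0.256 to 3.61 CPM (median 1.12), with a log2 fold change of -1.86 ± 0.52 (adjusted p = 0.018). The antisense gene Foxl2os overlaps its start and was called lower too, and reads of the pair may not be separable. Amh, anti-Müllerian hormone, was called against the 18 (log2 -1.53 ± 0.49, adjusted p = 0.034) and replicates 9 to 18 but not replicates 1 to 8 (adjusted p = 0.12), while Fshr, the FSH receptor, was at a median of 0.377 CPM in double mutants and 0.554 CPM in wild types and did not pass (adjusted p = 0.36).

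The steroid synthesis genes gave some of the widest gaps. Hsd3b1, which converts pregnenolone to progesterone and whose gene spans chr3:98852194-98859794, was at 0.401 to 2.20 CPM (median 1.35) in double mutants and 5.57 to 50.9 CPM (median 12.8) in wild types. Cyp11a1, the side-chain cleavage enzyme that starts steroid synthesis, was at 0.401 to 1.64 CPM (median 0.646) against 4.57 to 52 CPM (median 8.34). Neither gene overlapped between groups. Their log2 fold changes against the 18 were -3.70 ± 0.47 (adjusted p = 2.2e-06) and -4.03 ± 0.53 (adjusted p = 4.9e-06), and -3.73 ± 0.50 and -3.72 ± 0.56 against replicates 1 to 8. Both were lower than in either single mutant, with log2 differences of -2.93 and -2.56 for Hsd3b1 and -2.69 and -3.42 for Cyp11a1 (adjusted p from 5.6e-05 to 0.00053). Aldh1a1, a retinaldehyde dehydrogenase of the theca and interstitium, was at 0.201 to 0.662 CPM (median 0.445) against 1.86 to 33.4 CPM (median 7.83), without overlap (log2 -4.48 ± 0.54, adjusted p = 1.0e-06). Nr5a1, which encodes the steroidogenic transcription factor SF-1, was at 0.147 to 1.04 CPM (median 0.383) against 0.831 to 5.14 CPM (median 1.79), with a small overlap (log2 -1.78 ± 0.40, adjusted p = 0.0044). Akr1cl, an aldo-keto reductase gene, was at 3.18 to 4.91 CPM (median 4.25) against 5.77 to 43.2 CPM (median 13.9), without overlap (log2 -1.97 ± 0.34, adjusted p = 0.00017). Adh1, an alcohol dehydrogenase gene on none of the lists, was at 0 in all 8 double mutants and at 0.165 to 3.25 CPM in every wild type, hence at least 33.7-fold lower with a floor of 3 counts over the 8 libraries, and at least 26.6-fold lower than in replicates 1 to 8.

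Of the 14 tested stromal and smooth muscle genes, Col3a1, Acta2, Vim, Col1a2 and Col6a1 were lower in both comparisons. The whole list summed to 303 to 376 CPM in double mutants and 322 to 550 CPM in wild types, since members such as Myh11, a smooth muscle myosin, and Col4a1, a basement membrane collagen, were at means of 249 and 37.4 CPM in double mutants. Col3a1, a fibrillar collagen gene, had 2 counts over the 8 double mutant libraries and 655 over the 18 wild types, where every library had some and the range was 0.639 to 6.62 CPM. As a share of all counts the double mutant level was 0.743% of wild type, with a 95% exact (Clopper-Pearson) interval of 0.0898% to 2.69% that covers counting error only (edgeR adjusted p = 2.2e-05). Acta2, smooth muscle actin, was at 0 in all 8 double mutants and at 0.348 to 8.13 CPM in wild types, at least 59.7-fold lower over the same floor, and at least 31.3-fold lower than in replicates 1 to 8. Vim, an intermediate filament gene present in MII oocytes by its mean, was at 0 to 0.496 CPM (median 0.0612) against 0.446 to 10.7 CPM (median 1.64), with a slight overlap (log2 -4.11 ± 0.72, adjusted p = 0.00027). Col1a2 and Col6a1 were at a median of 0 in double mutants and at 0.798 and 0.730 CPM in wild types, and both were called in both comparisons (adjusted p = 0.0061 and 0.0014 against the 18). Col1a1 was called against the 18 (log2 -2.39 ± 0.73) and replicates 9 to 18 (-2.88) and not against replicates 1 to 8 (-1.36 ± 0.80, adjusted p = 0.50).

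**Figure D4:**
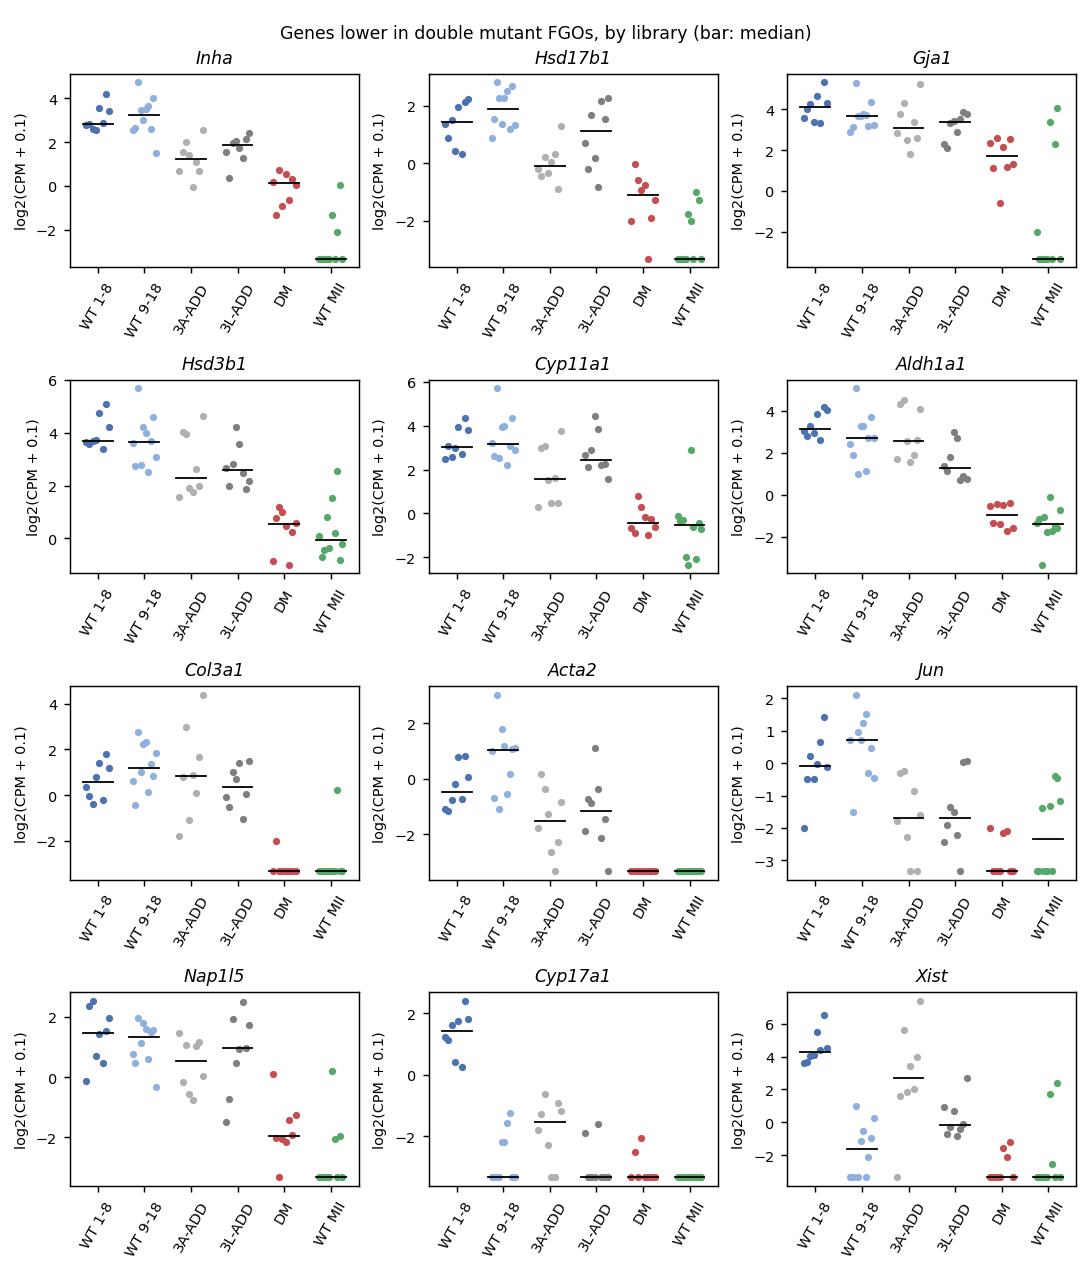
Expression as log2(CPM + 0.1) of 12 genes lower in double mutant FGOs, one point per library and a bar at each group's median, with groups as named for the higher genes. Inha, Hsd17b1, Gja1, Hsd3b1, Cyp11a1 and Aldh1a1 lie below every wild-type FGO in all double mutants (DM), whereas Cyp17a1 and Xist separate wild-type (WT) replicates 1 to 8 from replicates 9 to 18.

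Cyp17a1, the enzyme of androgen synthesis in theca cells, was lower only against part of the wild types. It had 3 counts in all over the double mutants, and ranged from 1.08 to 5.21 CPM in wild-type replicates 1 to 8 and from 0 to 0.323 CPM in replicates 9 to 18. The double mutants lay below the first set and overlapped the second, and the adjusted p was 3.3e-06 against replicates 1 to 8 and 0.28 against replicates 9 to 18. Xist, the RNA that silences an X chromosome in female somatic cells, showed the same split. Its 8 double mutant values were 0 to 0.331 CPM, and the wild types were at 11.9 to 91.2 CPM in replicates 1 to 8 and 0 to 1.92 CPM in replicates 9 to 18. The adjusted p for Xist was 1.2e-05 against the first set and 0.26 against the second. Mean Xist was 31.7 CPM in DNMT3A-ADD and 1.61 CPM in DNMT3L-ADD FGOs. The predicted gene Gm38034 followed the same order, at 0.891 to 7.92 CPM in replicates 1 to 8, 0 to 0.349 CPM in replicates 9 to 18 and 0 to 0.284 CPM in double mutants.

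In the other direction, Gm13092, Prss35 and C530005A16Rik had larger differences from replicates 9 to 18. Gm13092, a predicted gene, was at 0.201 to 0.743 CPM in double mutants, 0.297 to 0.875 CPM in replicates 1 to 8 and 1.24 to 3.67 CPM in replicates 9 to 18. C530005A16Rik, a non-coding transcript, was at log2 -2.74 ± 0.95 against the 18 and -0.13 ± 1.04 (adjusted p = 0.98) against replicates 1 to 8. Prss35, a protease-like gene of the ovary, was called against every set. It had 3 counts over the double mutants, 0.927% of the wild-type level with an exact 95% counting interval of 0.191% to 2.72%.

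Several lower genes with no place on the lists were called in both comparisons. Tceal9, an X-linked transcription elongation factor-like gene, was at 0.535 to 2.28 CPM (median 1.29) in double mutants and 2.23 to 9.93 CPM (median 3.97) in wild types (log2 -1.89 ± 0.29, adjusted p = 3.3e-05). Clu, encoding the secreted chaperone clusterin, was at 0 to 0.992 CPM (median 0.220) against 0.703 to 8.36 CPM (median 2.73), with a small overlap (log2 -3.72 ± 0.57, adjusted p = 3.6e-05). Tpm2, a muscle-type tropomyosin, and Serpinh1, the collagen chaperone, gave log2 -2.03 ± 0.35 and -1.95 ± 0.38 and overlapped between groups. Lgals1, a galectin gene, was at 0 to 0.156 CPM in double mutants and 0.273 to 3.25 CPM in wild types, without overlap (log2 -3.44 ± 0.52, adjusted p = 3.2e-05). Hist1h1b, a linker histone of dividing cells, was at 0.142 to 0.853 CPM (median 0.314) against 0.462 to 6.74 CPM (median 2.23) with overlap (log2 -2.67 ± 0.42, adjusted p = 4.5e-05), and its near copies may share reads. Gm7832, a predicted gene, was at 0 to 0.589 CPM against 0.330 to 2.01 CPM (log2 -1.95 ± 0.37, adjusted p = 0.00084).

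Of 22 listed immediate early genes, which answer stimulation within minutes, 17 were tested and 2 were lower in both comparisons, beside 0.674% of all genes. Jun, a subunit of the AP-1 factor, was at 0 to 0.149 CPM in double mutants and 0.149 to 4.24 CPM (median 1.18) in wild types, without overlap although the nearest values round alike (log2 -4.54 ± 0.73, adjusted p = 7.1e-05). Myc was at 0 to 0.535 CPM against 0.124 to 2.5 CPM, and just passed (log2 -1.75 ± 0.60, adjusted p = 0.048). Against replicates 9 to 18 Myc did not pass (adjusted p = 0.36). The median log2 fold change over the list was 0.02.

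Of 37 tested imprinted genes at loci methylated in the oocyte, Peg10 was higher and Nap1l5 lower in both comparisons, beside 0.0445% and 0.674% of all genes, and the median log2 fold change was 0.08. Nap1l5, a nucleosome assembly protein gene of chr6:58905233-58907076 lying within the span of Herc3, was at 0 to 0.966 CPM (median 0.156) in double mutants and 0.693 to 5.69 CPM (median 2.64) in wild types. The groups met only at 1 double mutant library. The log2 fold change was -3.26 ± 0.52 (adjusted p = 6.6e-05) against the 18 and -3.44 ± 0.56 (adjusted p = 0.00024) against replicates 1 to 8, and it was -2.44 and -3.13 against DNMT3A-ADD and DNMT3L-ADD (adjusted p = 0.0015 and 0.0003). Its host Herc3, a ubiquitin ligase gene, was at 78.5 to 107 CPM against 57.6 to 101 CPM, with a log2 difference of 0.36 ± 0.07 against the 18 (adjusted p = 0.0017) that did not pass against replicates 1 to 8 (adjusted p = 0.13). Fam13a, 25014 bases away, was lower, with medians of 2.33 and 6.75 CPM (log2 -1.84 ± 0.37, adjusted p = 0.0012). None of the 5 tested genes at paternally methylated loci was called.

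Other well-known imprinted genes gave no called difference. Snrpn was at 5.55 to 11.7 CPM in double mutants and 5.94 to 10.9 CPM in wild types (adjusted p = 0.57). Igf2r, at medians of 228 and 234 CPM, and Cdkn1c, at 7.73 and 6.82 CPM, did not pass either (adjusted p = 0.60 and 0.33). Mest, Grb10 and Phlda2 passed by p against the 18, at log2 0.20 ± 0.06, 0.31 ± 0.08 and 0.83 ± 0.22, and not against replicates 1 to 8 (adjusted p = 0.25, 0.27 and 0.17). Of the 11 tested genes imprinted through histone H3 lysine 27 methylation, Xist and Mbnl2 were lower in both comparisons, beside 0.674% of all genes. Smoc1 (log2 -1.99 ± 0.68) and Runx1 (-1.54 ± 0.46) were called against the 18 and not against replicates 1 to 8, and Runx1 also against replicates 9 to 18. Mbnl2, a splicing regulator, was at 0.442 to 1.85 CPM against 0.511 to 5.91 CPM (log2 -1.19 ± 0.40, adjusted p = 0.046), and did not pass against replicates 9 to 18 (adjusted p = 0.15).

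Gene lists of this size would seldom hold a called gene when 0.719% of all genes were called in both comparisons, and the counts of 0 that follow are to be read against that share. None of 19 tested genes of the DNA methylation machinery, 18 of lysine 4 methylation, and 25 enzymes of lysine 36, lysine 9 and Polycomb methylation was called against either wild-type set. Mbd1, a methyl-CpG binding protein gene, was the only one of these below the threshold of adjusted p in both, at 7.47 to 19.2 CPM (median 10.9) in double mutants and 13.2 to 24.8 CPM (median 17.2) in wild types (log2 -0.53 ± 0.14, adjusted p = 0.012, and -0.59 ± 0.16, adjusted p = 0.038). Dnmt1 was at medians of 3794 and 4162 CPM and Tet3 at 3680 and 3427 CPM, and neither passed against the 18 or replicates 1 to 8. Against replicates 9 to 18 Dnmt1 was lower by less than 2-fold (log2 -0.25, adjusted p = 0.00015). None of 21 tested germline genes, 16 genes of the subcortical maternal complex and its relatives, 26 of meiotic maturation and 20 of maternal RNA decay and storage was called either. Cnot6, a deadenylase gene of the last list, was higher by log2 0.32 ± 0.05 against the 18 (adjusted p = 0.00016) and 0.20 ± 0.05 against replicates 1 to 8 (adjusted p = 0.036).

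Among transcripts that MII oocytes keep, most differences were small, and few of those that passed against the 18 passed in both comparisons. By adjusted p alone, 1926 genes (12.2%) passed against the 18 wild types, 339 (2.16%) against replicates 1 to 8 and 251 (1.6%) in both. Against the 18, 837 present genes were higher (6.59%) and 883 lower (6.95%). In both comparisons 76 present genes were higher (0.598%) and 91 lower (0.716%), and 71 and 63 of them by less than 2-fold. Of 3025 absent genes 3 were higher (0.0992%) and 81 lower (2.68%) by that measure. In 4 genes (0.0254% of those tested) all 8 double mutants lay above all 18 wild types, namely Dnajc10, Sumf1, Oaz2 and Mafg, all present in MII oocytes. The genes named in this paragraph and in the rest of this section were chosen after their values were seen.

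Oaz2, an antizyme that restrains polyamine synthesis, was at 41.5 to 49.9 CPM (median 44.8) in double mutants and 22.8 to 39.6 CPM (median 29.4) in wild types (log2 0.57 ± 0.08, adjusted p = 6.3e-06). Mafg, a small Maf transcription factor, was at 71.2 to 84.0 CPM (median 77.8) against 47.4 to 70.9 CPM (median 54.3) (log2 0.45 ± 0.06, adjusted p = 1.8e-05). Dnajc10, a disulfide reductase of the endoplasmic reticulum, was at 104 to 132 CPM against 80.7 to 102 CPM (log2 0.31 ± 0.04, adjusted p = 1.8e-05). These 3 also passed against replicates 1 to 8, with log2 fold changes of 0.54, 0.37 and 0.33. Sumf1, which activates sulfatases, passed against the 18 (log2 0.24 ± 0.06, adjusted p = 0.0085) but not against replicates 1 to 8 (adjusted p = 0.075). Oaz2 means were 47.6 CPM in DNMT3A-ADD and 42.8 CPM in DNMT3L-ADD FGOs, with no called difference from the double mutant. Sh3bp2, an adaptor protein gene, gave the lowest adjusted p of the smaller shifts, at 141 to 224 CPM (median 198) against 94.1 to 154 CPM (median 118) (log2 0.67 ± 0.08, adjusted p = 1.0e-06). Espl1, encoding separase, which opens cohesin at anaphase, was at 339 to 474 CPM against 305 to 351 CPM (log2 0.31 ± 0.05, adjusted p = 5.4e-05). Mean Sh3bp2 was 199 CPM in DNMT3A-ADD and 182 CPM in DNMT3L-ADD FGOs, and mean Espl1 412 and 392 CPM. Neither gene differed between the double mutant and either single mutant by the test. Elavl2, an RNA-binding protein gene, was at medians of 366 and 259.7 CPM with overlap (log2 0.40 ± 0.06, adjusted p = 4.1e-05).

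In the lower direction, Oxct1, which lets cells burn ketone bodies, was at 35.0 to 41.1 CPM (median 39.5) in double mutants and 45.1 to 62.8 CPM (median 54.0) in wild types, without overlap. Its log2 fold change was -0.49 ± 0.07 (adjusted p = 9.5e-06), and it was lower than in DNMT3A-ADD and DNMT3L-ADD FGOs by similar amounts (log2 -0.46, adjusted p = 6.7e-05, and -0.40, adjusted p = 0.00067). Tepsin, a vesicle coat protein gene, was at 8.03 to 12.2 CPM (median 11) against 13.7 to 20.2 CPM (median 16), without overlap (log2 -0.64 ± 0.09, adjusted p = 6.3e-06). Fry, a gene of cell shape and spindle function, at 124 to 147 CPM against 153 to 191 CPM, and Thsd7a, at 83.1 to 91.2 CPM against 93.8 to 124 CPM, also lay apart from all wild types. Thsd7a did not pass against replicates 1 to 8 (adjusted p = 0.064). Enpp2, which makes lysophosphatidic acid, was at 10.0 to 19.9 CPM against 20.9 to 38.3 CPM (log2 -0.81 ± 0.14, adjusted p = 0.00014). Its single mutant means, 16 and 17.2 CPM, did not differ from the double mutant by the test.

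**Figure D5:**
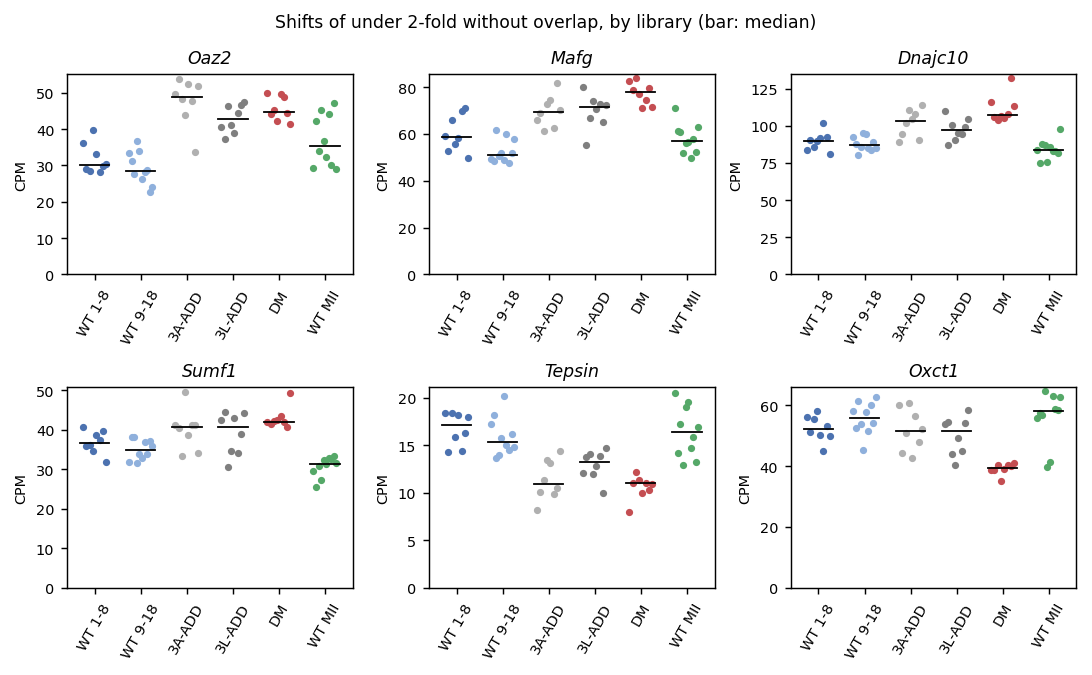
Expression in CPM, on linear axes from 0, of 6 genes present in MII oocytes whose double mutant values lie apart from all 18 wild-type FGOs at changes under 2-fold, one point per library and a bar at each group's median. Oaz2, Mafg, Dnajc10 and Sumf1 are above every wild-type (WT) FGO in the double mutant (DM), and Tepsin and Oxct1 are below.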

How the data were processed

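RNA was sequenced from single FGOs and MII oocytes with the SMART-Seq HT kit. The authors' alignment used STAR and mm10, reads were then counted per gene, and the deposited values are raw counts, 1 file per library. The submitters' processing notes name STAR and HTSeq, and the file layout is that of featureCounts. The annotation release, strand setting and handling of reads that map repeatedly are not given in the sources used here. A series-wide embryo table with 14 columns was not used.

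Counts of the 42 FGO libraries were fitted together with edgeR 4.0.16 in R 4.3.3 by the quasi-likelihood method after TMM scaling, keeping genes that filterByExpr retained at its minimum count of 10, with genotype as the factor and Benjamini-Hochberg adjustment. A second fit held the wild types as replicates 1 to 8 and 9 to 18. Calls needed an adjusted p under 0.05 and a fold over 2. SEs are the log2 fold change divided by the root of F. CPM are counts divided by the library total. Libraries of 11510790 to 17216121 counts leave few counts behind values near 1 CPM, and intervals and floors cover counting error only. Functions were checked on simulated counts.

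The members and lists were chosen with earlier results of these data known. Named genes were the mutated genes, then among genes called in both comparisons those of lowest p in each class (up to 10 higher and 10 lower present, 4 higher and 8 lower absent in MII oocytes, with open places filled from calls against the 18), the 3 genes in each direction whose value moved most between wild-type sets, and called members of the lists. Other named genes were chosen after their values were seen. Same-numbered double mutant and wild-type libraries did not deviate together (2 of 8 pairs correlated above 0.1, range -0.57 to 0.47), so no pairing was used. Promoter windows are RefSeq GRCm38.p6 and exons GENCODE vM21. Alternatives were DESeq2 1.42.0, other scaling, filters and libraries.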

Additional observations from a re-analysis of the deposited data

Results flagged for a closer look

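In 36 of 163 sets of values tested, 1 library stood apart from the rest of its group. Its gap to the nearest library, divided by the group's range, exceeded Dixon's 95% critical value. That value assumes normally distributed data, which CPM of scarce genes need not be, so 36 cannot be set against a chance rate. The genes here also share libraries. Wild-type replicate 11 accounts for 17 of the 36. Its summed level of somatic markers under 1 CPM in MII oocytes was 167.5 CPM, the highest of the replicates 9 to 18. In that library Hsd3b1 was at 50.9, Cyp11a1 at 52, Clu at 8.36, Akr1cl at 33.6, Gja1 at 38.9, Vim at 10.7, Aldh1a1 at 33.4 and Adh1 at 3.25 CPM. It also held Acta2 at 8.13, Prss35 at 17.4, Inhba at 24.3, Fst at 5.52, Foxl2 at 3.43, Col6a1 at 4.53, Runx1 at 3.31 and Myc at 1.05 CPM. Without it 213 genes were called against the wild types.

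The other wild-type libraries stood apart for 1 or 2 genes each. Replicate 7, with Xist and Nr5a1, also had the highest summed somatic markers of replicates 1 to 8 (107 CPM). In replicates 1 to 8 these were Spin4 at 4.50 CPM in replicate 5, Nes at 34.4 in replicate 6, Tpm2 at 5.40 in replicate 8, Inhba at 30.3 in replicate 3, Adh1 at 2.35 and C530005A16Rik at 0.782 in replicate 2, and Xist at 91.2 and Nr5a1 at 5.14 in replicate 7. In replicates 9 to 18 they were Has2 at 2.62 CPM in replicate 10, C530005A16Rik at 8.86 in replicate 16 and Gm13092 at 3.67 in replicate 18.

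Among the double mutants, replicate 7 was high for Clu (0.992 CPM) and Tmem37 (1.74 CPM), replicate 2 for Inhba (6.77 CPM) and Col3a1 (0.147 CPM) and replicate 1 for Nap1l5 (0.966 CPM). Double mutant replicate 3 was high for Serpinh1 (1.85 CPM), Gm38034 (0.284 CPM) and Prss35 (0.142 CPM). The sets of Col3a1, Gm38034 and Prss35 hold 1 library or a few with any count.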

How the results depend on the processing

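The 260 genes called against the 18 wild types and the 149 called against replicates 1 to 8, with 113 in both, depended most on which libraries and which fold limit were used. Dropping the 2-fold limit gave 1926, 339 and 251. A mean of at least 1 CPM over libraries gave 149 against the 18 and 75 in both, fewer genes being tested. Fitting only the libraries compared gave 76 against replicates 1 to 8 and 53 in both. Wild-type replicates 9 to 18 alone gave 837 (493 higher, 344 lower). DESeq2 gave 316, 193 and 154. Leaving out 1 double mutant moved the 3 counts to 203 to 290, 126 to 155 and 91 to 108, and leaving out 1 wild type to 213 to 338, 102 to 152 and 72 to 116, the lowest being without replicate 11 for the first and replicate 7 for the others. Without replicates 7 and 11, an alternative chosen after seeing the data, 71 genes were called in both. With the replicate number as a block, 128 genes were called against the 18 (6 higher, 122 lower), although the numbers do not pair the samples.

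By presence in MII oocytes, against the 18, the 11 higher present genes became 17 at 0.5 CPM, 3 at 5 CPM and 5 by calls against replicates 1 to 8 or in both. The 17 higher absent genes became 11 at 0.5 CPM, 5 against replicates 1 to 8 and 2 in both. The 62 lower present genes became 99 at 0.5 CPM, 9 at 5 CPM, 41 by the MII median and 27 in both, and the 170 lower absent genes 97 against replicates 1 to 8 and 79 in both. Among the named genes the sign turned only for Dnmt3a, Dnmt3l and C530005A16Rik. Dnmt3a moved to -0.049 (replicates 9 to 18) and Dnmt3l to 0.22 (replicates 1 to 8, and also turned with the block). C530005A16Rik moved from -2.74 against the 18 to 0.0021 (block). Of all genes called against the 18, 1 had the opposite sign against replicates 1 to 8. The causes were not tested. Levels near 1 CPM rest on few counts in each library, so that small changes of scarce transcripts were not detectable.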

Other observations

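The genes described here were chosen after their values were seen. Rmrp, the RNA of RNase MRP, was at 1.27 to 24.9 CPM in double mutants, 17 to 66.3 CPM in wild-type replicates 1 to 8 and 7.95 to 29.5 CPM in replicates 9 to 18. Its log2 fold change by edgeR was -1.90 against the first set (adjusted p = 0.008) and -0.57 against the second (adjusted p = 0.28). Snord17, a small nucleolar RNA, and Rnu3a, the U3 RNA of ribosome assembly, gave -2.17 and -2.18 against replicates 1 to 8 and -0.39 and -0.65 against replicates 9 to 18. Neat1, the scaffold RNA of paraspeckles, was lower against every set, at 0 to 0.803 CPM against 0.407 to 12.9 CPM in the 18 wild types (log2 -3.54 ± 0.94, adjusted p = 0.012). Malat1, a nuclear speckle RNA, was at medians of 116 and 127 CPM in double mutants and wild types and did not pass (adjusted p = 0.18).

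The circadian gene Per3 was higher in double mutants by less than 2-fold, at 178 to 275 CPM (median 214) against 116 to 235 CPM (median 138) in wild types. It passed against the 18 (log2 0.54 ± 0.08, adjusted p = 2.9e-05), against replicates 1 to 8 (0.33 ± 0.07, adjusted p = 0.0069) and against both single mutants (0.37 and 0.43, adjusted p = 0.0039 and 0.0019). Gm4076, a predicted gene, was at 49.3 to 83.3 CPM against 80.0 to 268 CPM in wild types (log2 -0.89 ± 0.16, adjusted p = 0.00024), and was at a mean of 41.7 CPM in DNMT3A-ADD FGOs. Kif21b, a kinesin gene, was at medians of 24.7 and 50.7 CPM (log2 -0.91 ± 0.15, adjusted p = 0.00013).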
